A study of Mus musculus with 16 samples.

Results

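The 10 genes described here carry lipid out of cells, package it into lipoproteins or hold it in droplets: Apoe, Apoc1, Apod, Abca1, Abcg1, Nr1h3, Lpl, Plin2, Soat1 and Angptl4. They were taken by name, with every probe that maps to them, from the 18749 genes named on an Agilent 4x44K mouse array. All 10 were on the array, with 13 probes in all, 2 of them for Lpl and 3 for Soat1. Every one of the 13 probes was well above background on all 16 arrays, so no member was lost to the filter on dim probes. The RNA came from corpus callosum punched out of the brains of wild-type male C57BL/6 mice. The groups were 3 untreated arrays from mice on normal chow, 3 arrays after 2 weeks of cuprizone (CPZ), 4 arrays after 4 weeks of CPZ, and 6 arrays from mice returned to regular diet after 4 weeks of CPZ. Fed CPZ, which binds copper, mice lose their myelinating cells, and the labels give the dose as 0.2 to 0.4% of the chow. Age and sex of the untreated arrays correspond to those after 4 weeks of CPZ. By the study's methods the regular diet mice had either 2 days or 2 weeks without CPZ. The labels do not say which array is which, so these 6 arrays are treated as 1 group whose spread includes the difference between the times. The methods name 3 to 6 mice for each condition, but no label ties an array to an animal, so the p-values measure the spread between these arrays.

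Myelin is the most cholesterol-rich membrane of the brain, and the sterol ring of cholesterol cannot be degraded by brain cells. Phagocytes that engulf myelin must esterify its cholesterol for storage in droplets or hand it to lipoproteins for export. The esterifying enzyme is made from Soat1, and the droplet coat protein perilipin 2 from Plin2. Export runs through the membrane transporters ABCA1 and ABCG1 onto particles carrying apolipoprotein E, and the genes of this route are targets of the liver X receptors, one of which is encoded by Nr1h3. Lipoprotein lipase (Lpl) frees fatty acids from lipoprotein particles, and ANGPTL4 inhibits it.

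The promoters of the efflux gene Abca1 and the storage gene Plin2 are shown because both genes had means above untreated in all 3 treated groups and the windows differ in the letters they hold. They run 5′ to 3′ on the gene's strand, from 250 bases before to 50 after the start site, and come from RefSeq on GRCm38.p6. The Abca1 window lies at chr4:53159846-53160145 on the minus strand. Its capitals mark a pair of receptor half-sites, read on the opposite strand as GGTTA and GGTCA with 5 bases between them. The Plin2 window lies at chr4:86670010-86670309 on the minus strand, and its capitals mark a single AGGTCA, again on the opposite strand.
Abca1: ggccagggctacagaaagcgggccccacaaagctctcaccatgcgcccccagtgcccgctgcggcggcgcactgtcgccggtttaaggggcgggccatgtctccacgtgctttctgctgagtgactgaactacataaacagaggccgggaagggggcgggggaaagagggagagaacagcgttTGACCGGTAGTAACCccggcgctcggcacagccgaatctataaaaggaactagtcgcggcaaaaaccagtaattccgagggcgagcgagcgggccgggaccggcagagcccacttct
Plin2: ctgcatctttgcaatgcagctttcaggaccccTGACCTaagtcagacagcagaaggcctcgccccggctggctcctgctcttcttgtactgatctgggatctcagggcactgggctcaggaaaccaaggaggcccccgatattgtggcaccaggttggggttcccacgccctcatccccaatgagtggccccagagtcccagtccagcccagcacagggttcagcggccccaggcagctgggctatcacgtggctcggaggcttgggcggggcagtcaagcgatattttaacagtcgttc
The pair was searched on both strands as GGTCA or GGTTA, 5 bases, then GGTCA or GGTTA, a relaxed form of the repeat bound by liver X receptors that was chosen after the window had been read. It occupies positions -67 to -53 from the Abca1 start site and occurs in 0.213% of the 32851 promoter windows of this length. The single half-site AGGTCA, which shares its last 5 letters with the pair's form, sits at positions -218 to -213 of Plin2 and occurs in 16.3% of windows. The letters CACGTG, a palindrome bound by helix-loop-helix factors, are in both windows and in 7.15% of all, and TATAAA is in Abca1 and in 13.6% of all. Windows were found for 6 of the 10 genes, 9 in total since Apoe and Nr1h3 have several starts, and the relaxed pair occurs in 1 of the 9 and AGGTCA in 1. These are matches of letters and not measured binding.

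A level is the log2 signal of a probe minus the log2 of its array's 75th percentile of signal, so 0 is the level of that percentile and 1 unit is a 2-fold step. Levels of different probes are not compared with each other. The share of probes well above background was 57.3 to 72.2% over the 16 arrays, and precision is limited by how few arrays each group has. The scanner files and the deposited table of processed values disagreed on the sample of an array for 14 of 16 arrays, 13 of them across groups. Each column of the processed table matched 1 array, and that column's sample name was taken. Many directions below depend on this: under the other assignment 16 differences from untreated turned sign, while the rest kept theirs. The values of those that turned are given with the alternatives. A probe was called at a Benjamini-Hochberg adjusted p under 0.05 over all probes tested and at least a 2-fold difference in limma. The test of CPZ groups used 27505 probes on 10 arrays, and that of regular diet used 27785 probes on all 16.

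Apoe, Apoc1, Abca1, Lpl, Plin2, Soat1, Angptl4 and Nr1h3 stood above untreated in their means at both CPZ times and on regular diet. Apod stood below at all 3, and Abcg1 stood below at both CPZ times. By brightest probe, 8 of the 10 genes were higher than untreated at 2 weeks of CPZ, 8 at 4 weeks and 9 on regular diet. Their median log2 difference was 0.81 at 2 weeks, where the median of all tested probes was 0.03. It was 1.22 at 4 weeks against -0.03, and 1.35 on regular diet against -0.03. The members were chosen with earlier results of these data known. These medians and the counts below, set against all probes, are therefore descriptive. Of the 10, Apoc1 on regular diet was the only one that passed the test in the fit without slides.

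**Figure D1:**
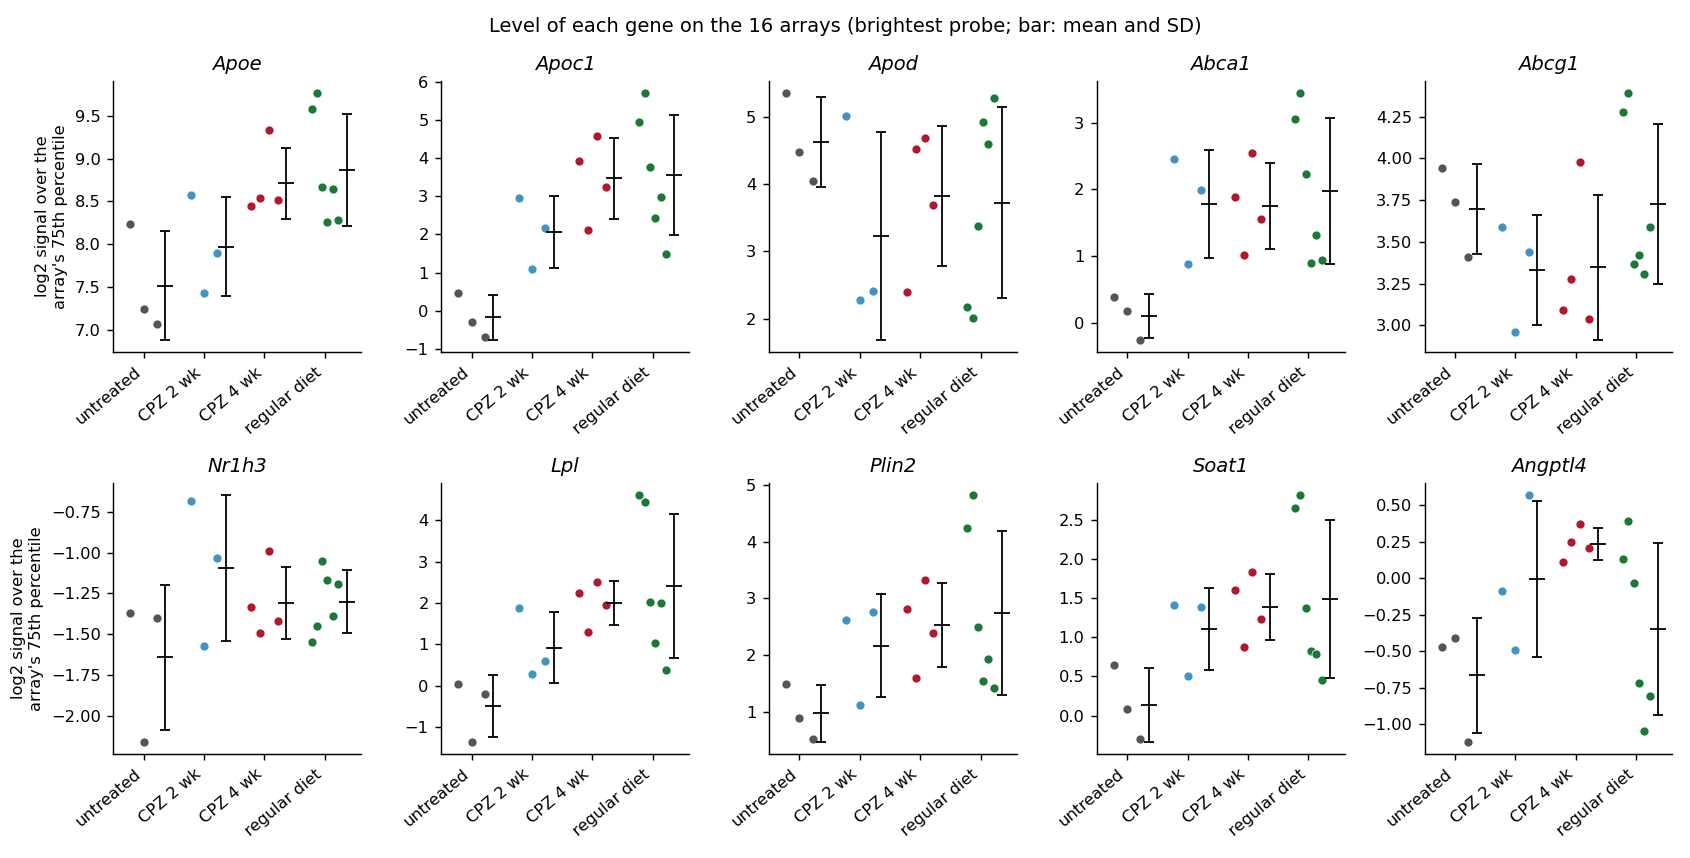
Level of the 10 genes on each of the 16 arrays, as log2 signal over the array's 75th percentile (brightest probe; each panel has its own vertical scale). Points are arrays in order of replicate number, and the black bar is the mean with SD; regular diet arrays 1 and 2 lie at the top of the panels for Apoe, Apoc1, Abca1, Abcg1, Lpl, Plin2 and Soat1 and at the bottom of that for Apod.

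At 2 weeks of CPZ, no member probe was called by limma, where 0.193% of all tested probes were. At an unadjusted p under 0.05, 4 of the 13 probes were higher and 0 lower, against 4.25% of all probes higher. These were the probes of Apoc1 and Abca1 and the brightest ones of Lpl and Soat1. In 5 of the 13, every CPZ array lay above every untreated array, as did 8.33% of all probes.

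At 4 weeks, the count of calls was again 0 of 13, with 0.164% of all probes called. This count rests on leaving the slide out of the fit, since 5 probes passed once the slide was a fixed block (1.73% of all probes called) or as a random block (1.52%), with Apoc1, Abca1, Lpl and Soat1 called in both and Plin2 with the fixed one. At an unadjusted p under 0.05, 8 probes were higher and 0 lower, against 5.05% of all probes higher. They cover 7 genes: Apoe, Apoc1, Abca1, Lpl with both probes, Plin2, Soat1 and Angptl4. The 4 arrays lay above all 3 untreated arrays in 8 of the 13 probes, and in 5.28% of all.

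On regular diet, 1 of the 13 probes was called, that of Apoc1, with 0.799% of all probes called. At an unadjusted p under 0.05, 9 probes were higher and 0 lower, against 6.05% of all higher. The 9 include both probes of Lpl and all 3 of Soat1. In 7 of the 13, all 6 arrays lay above every untreated array, and in 4.89% of all. These 3 comparisons share the untreated arrays and are not independent of each other.

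**Figure D2:**
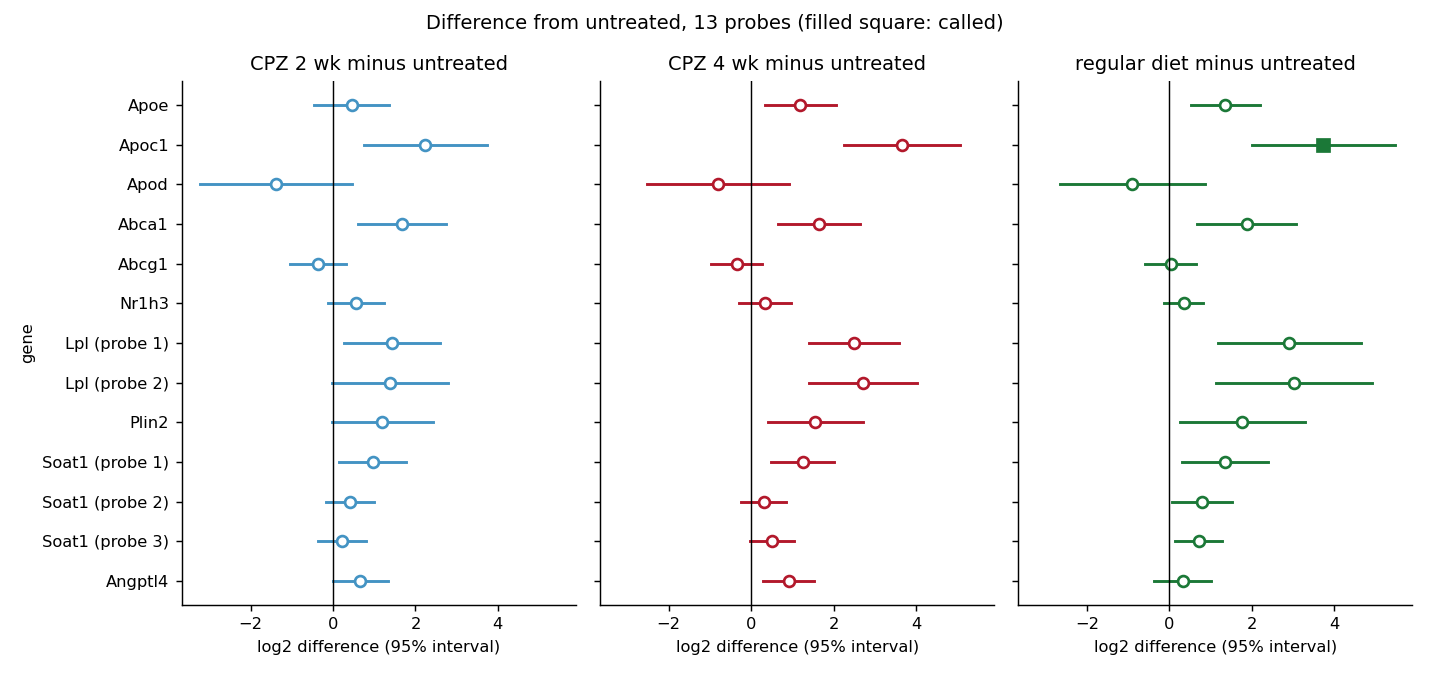
Log2 difference from untreated for the 13 probes, with its 95% interval from limma, at 2 weeks of CPZ (left), 4 weeks (middle) and on regular diet (right). The filled square marks the called probe, Apoc1 on regular diet at 3.74; the intervals of Apod, Abcg1 and Nr1h3 span 0 in all 3 panels.

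Among the lipoprotein genes, Apoe encodes the main apolipoprotein of the brain, secreted by astrocytes and by activated microglia. Its level was 8.24, 7.24 and 7.07 on the untreated arrays. After 2 weeks of CPZ it was 8.58, 7.43 and 7.90, and after 4 weeks 8.45, 8.54, 9.33 and 8.52. The regular diet arrays ran from 8.26 through a median of 8.66 to 9.76. Untreated array 1 lies inside the 2-week range, while all 4-week and all regular diet arrays lie above it. The difference from untreated was 0.45 (SE 0.41, adjusted p = 0.893 by limma) at 2 weeks, and it was 0.15 without 2-week array 1 and 0.81 without untreated array 1. It was 1.19 (SE 0.38, adjusted p = 0.267) at 4 weeks and 1.35 (SE 0.39, adjusted p = 0.17) on regular diet, a 2.55-fold step that did not pass. The Apoe probe is printed as 10 spots on each array, whose log2 signals had an SD of 0.02 to 0.13 within an array, and none was saturated.

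Apoc1, a small apolipoprotein encoded next to Apoe on chromosome 7 that modulates the handling of lipoproteins by lipases and receptors, had the widest span of the 10 genes. Its level was 0.46, -0.30 and -0.70 untreated, and 2 weeks of CPZ gave 2.95, 1.08 and 2.16. At 4 weeks it was 3.94, 2.11, 4.59 and 3.25, and on regular diet it ran from 1.48 through a median of 3.39 to 5.71. Every treated array exceeded every untreated one. The group means were -0.18 ± 0.59 (SD, n = 3) untreated, 2.06 ± 0.94 (n = 3), 3.47 ± 1.06 (n = 4) and 3.56 ± 1.58 (n = 6). Apoc1 rose on regular diet, by 3.74 on the log2 scale or 13.3-fold (SE 0.81, 95% interval 2.01 to 5.46, adjusted p = 0.0471 by limma). At 2 weeks the difference was 2.24 (SE 0.66, adjusted p = 0.222), and at 4 weeks it was 3.65 (SE 0.62, adjusted p = 0.0639), 12.6-fold. The call on regular diet lies close to the threshold: it was lost in 18 of 26 alternatives, over which the adjusted p ranged from 0.0232 to 0.757. Leaving out any 1 of 11 arrays ended it, namely untreated 1, 2 or 3, 2-week 1 or 3, 4-week 1 or 4, or regular diet 1, 2, 3 or 5, with adjusted p between 0.0606 and 0.252. Over all arrays left out in turn, the difference stayed between 3.31 and 4.15.

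Apod, an apolipoprotein of the lipocalin family that oligodendrocytes express, was the member that stood lowest against untreated. Its level was 5.35, 4.48 and 4.04 on the untreated arrays, 5.02, 2.27 and 2.41 at 2 weeks and 2.40, 4.52, 4.68 and 3.69 at 4 weeks. The regular diet levels ran from 2.01 through 3.98 to 5.28, with arrays 1 and 2 lowest and 4 and 6 highest. Each treated group has arrays within the untreated range and arrays below it. The differences were -1.39 (SE 0.82, adjusted p = 0.758), -0.80 (SE 0.77, adjusted p = 0.83) and -0.90 (SE 0.82, adjusted p = 0.647) at 2 weeks, 4 weeks and on regular diet, none of which passed. A single array weighed heavily at 2 weeks, where the difference was -2.29 without 2-week array 1 and -0.91 without 2-week array 2. At 4 weeks it was -0.33 without 4-week array 1, and on regular diet -0.54 without untreated array 1.

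Of the transporter genes, Abca1, which loads cholesterol onto lipid-poor apolipoproteins, had levels of 0.39, 0.18 and -0.26 untreated, then 2.46, 0.88 and 1.99 after 2 weeks of CPZ, then 1.88, 1.02, 2.55 and 1.55 after 4 weeks. In the regular diet group it ran from 0.90 through 1.77 to 3.44. No treated array fell within the untreated range. The difference was 1.67 (SE 0.47, adjusted p = 0.196) at 2 weeks, 1.64 (SE 0.44, adjusted p = 0.175) at 4 weeks and 1.87 (SE 0.56, adjusted p = 0.193) on regular diet, or 3.18-, 3.12- and 3.66-fold. It did not pass the test at any time in the fit without slides.

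Abcg1, which exports sterol to mature particles, had levels of 3.94, 3.74 and 3.41 untreated, 3.59, 2.96 and 3.44 at 2 weeks and 3.09, 3.28, 3.98 and 3.04 at 4 weeks. On regular diet it ran from 3.31 through 3.51 to 4.39, the 2 highest arrays again being 1 and 2. The groups overlap at each time. Its differences were -0.36 (95% interval -1.03 to 0.30), -0.35 (-0.98 to 0.27) and 0.03 (-0.58 to 0.65), so a rise of the size seen in Abca1 lies outside each interval for Abcg1.

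Nr1h3, the gene of liver X receptor alpha, was also close to untreated. Its level was -1.37, -2.16 and -1.40 untreated, -0.68, -1.57 and -1.03 at 2 weeks, and -1.33, -1.49, -0.99 and -1.42 at 4 weeks. The regular diet arrays spanned only from -1.55 through -1.29 to -1.05 in level. Untreated array 2 was the lowest of the 16, and the other untreated arrays sat among the treated ones. The differences were 0.55 (SE 0.30, adjusted p = 0.701), 0.34 (SE 0.28, adjusted p = 0.798) and 0.35 (SE 0.22, adjusted p = 0.563).

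Lpl, the lipase, had the largest difference after Apoc1 at 4 weeks of CPZ and on regular diet, and at 2 weeks Abca1 stood above it. The level of its brighter probe was 0.05, -1.35 and -0.19 untreated, 1.89, 0.28 and 0.60 with 2 weeks of CPZ, and 2.24, 1.29, 2.51 and 1.95 with 4 weeks. On regular diet it ran from 0.38 through 2.01 to 4.61. Every treated array exceeded every untreated array, and regular diet arrays 1 and 2, at 4.61 and 4.44, stood far above the other 4. The difference was 1.42 (SE 0.52, adjusted p = 0.367) at 2 weeks, 2.50 (SE 0.48, adjusted p = 0.0857) at 4 weeks and 2.91 (SE 0.81, adjusted p = 0.148) on regular diet, or 2.68-, 5.64- and 7.53-fold. The second Lpl probe gave differences of 1.39, 2.72 and 3.03, with adjusted p of 0.543, 0.103 and 0.174.

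Angptl4 encodes the inhibitor of that lipase. Its level was -0.47, -0.41 and -1.12 untreated, -0.09, -0.49 and 0.57 at 2 weeks, and 0.11, 0.25, 0.37 and 0.21 at 4 weeks. On regular diet it ran from -1.05 through -0.37 to 0.39. The 4-week arrays lay close together and above all untreated arrays, while regular diet arrays 4, 5 and 6 lay within the untreated range. The difference was 0.66 (SE 0.29, adjusted p = 0.536) at 2 weeks, 0.91 (SE 0.28, adjusted p = 0.241) at 4 weeks and 0.32 (SE 0.32, adjusted p = 0.666) on regular diet.

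Of the storage genes, Plin2 codes for the coat protein of lipid droplets. Its level was 1.5, 0.90 and 0.52 untreated, 2.62, 1.12 and 2.76 at 2 weeks, and 2.81, 1.59, 3.33 and 2.39 at 4 weeks. On regular diet it ran from 1.42 through 2.21 to 4.82. The 2-week array 2 and regular diet array 6 fell inside the untreated range, and all 4-week arrays lay above it. The difference was 1.19 (SE 0.54, adjusted p = 0.554), 1.56 (SE 0.51, adjusted p = 0.283) and 1.77 (SE 0.71, adjusted p = 0.396), or 2.29-, 2.95- and 3.42-fold, at 2 weeks, 4 weeks and on regular diet.

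Soat1 encodes the enzyme that esterifies cholesterol for storage. The level of its brightest probe was 0.64, 0.08 and -0.30 untreated, 1.42, 0.50 and 1.39 at 2 weeks, and 1.61, 0.88, 1.83 and 1.24 at 4 weeks, and on regular diet it ran from 0.46 through 1.1 to 2.82. As for Plin2, 2-week array 2 and regular diet array 6 overlap the untreated arrays and no 4-week array does. The difference was 0.96 (SE 0.36, adjusted p = 0.393), 1.25 (SE 0.34, adjusted p = 0.177) and 1.35 (SE 0.49, adjusted p = 0.333). The other Soat1 probes gave smaller differences, 0.41 and 0.22 at 2 weeks, 0.30 and 0.50 at 4 weeks, and 0.79 and 0.71 on regular diet.

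Between the times of treatment, no member passed the test. From 2 to 4 weeks of CPZ, 0 of 13 probes were called by limma, with 0.0109% of all called, and 2 were at an unadjusted p under 0.05, where 10.6% of all were. These were Apoc1, higher by 1.41 at 4 weeks (SE 0.62, adjusted p = 0.47), and the second Lpl probe, higher by 1.34 (SE 0.58, adjusted p = 0.47). Abca1 differed by -0.03 (95% interval -1.02 to 0.96). From 4 weeks of CPZ to regular diet, 0 of 13 probes were called, with 0.0036% of all called, and 0 had an unadjusted p under 0.05, where 24.7% of all did. The intervals were wide: -1.49 to 1.66 for Apoc1 and -1.17 to 2.00 for Lpl. The lowest p among the 10 genes was that of Angptl4, at -0.59 (95% interval -1.21 to 0.04, adjusted p = 0.224).

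The regular diet arrays did not form 1 cloud. Array 2 held the highest of the 16 levels in 9 of the 13 probes. Array 1 was among the 2 highest in 10 of the 13 and array 2 in 11. The median of the 10 genes relative to their untreated means was 2.29 and 2.46 on arrays 1 and 2, 1.19 on array 3, and 0.64, 0.81 and 0.55 on arrays 4, 5 and 6. On the 2-week arrays the same median was 1.17, 0.16 and 1.17, and at 4 weeks it was 1.21, 0.83, 1.75 and 1.06. Array 2 of the 2-week group is the one closest to untreated.

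**Figure D3:**
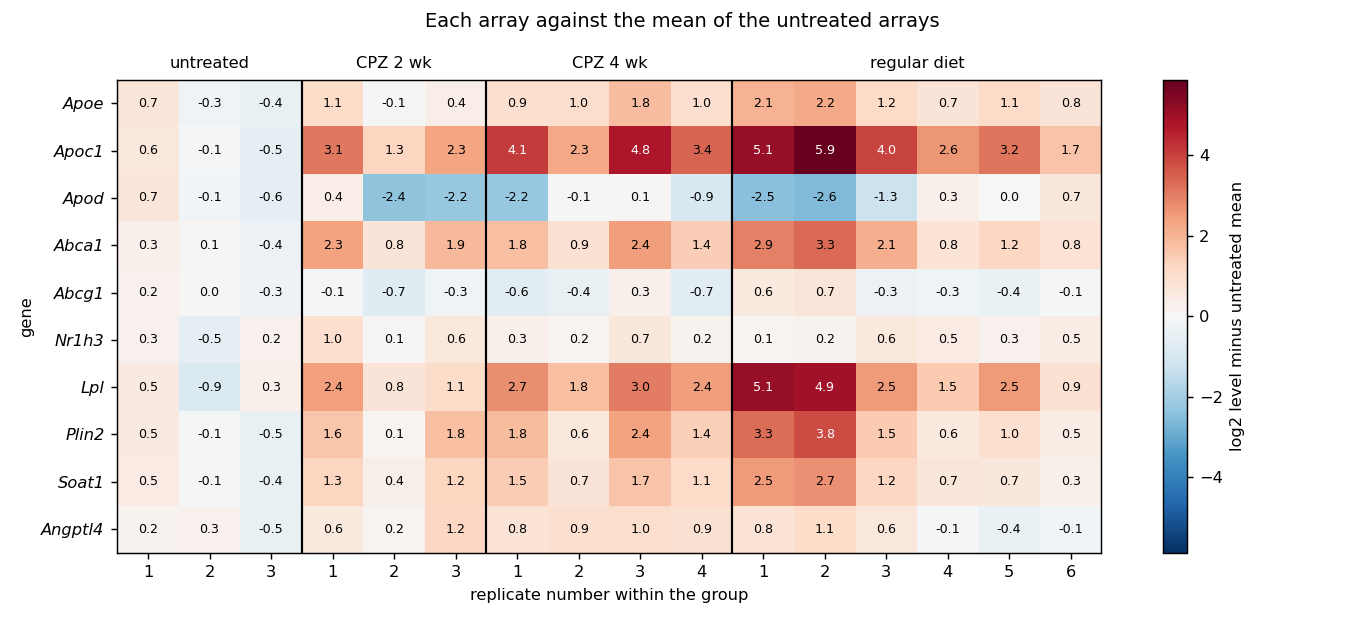
Level of the 10 genes (rows) on the 16 arrays (columns, by group and replicate number), as the log2 difference from the untreated mean, red above and blue below. Regular diet arrays 1 and 2 are darkest for Apoc1 (5.13 and 5.89), Lpl (5.11 and 4.94) and Plin2 (3.27 and 3.85), while Abcg1 and Nr1h3 stay pale throughout.

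The 16 arrays lay on 4 slides of 4, and each slide held several groups. The untreated arrays were on slides 1, 2 and 3, 1 on each. A 4-week and an untreated array shared a slide only on slides 2 and 3. For Apoc1, Abca1, Lpl, Plin2 and Soat1, these slides held the 2 lowest untreated arrays and the 2 highest 4-week arrays. For Apoc1 they were -0.30 and -0.70 against 4.59 and 3.94. Untreated array 1 and 4-week arrays 2 and 4 had no such partner. The CPZ fit without slides had 7 residual degrees of freedom, and a fixed block leaves fewer. With the slide as a fixed block, limma called 5 of the 13 probes at 4 weeks of CPZ, where 1.73% of all probes were called. In that fit Apoc1 rose by 4.50 (SE 0.42, adjusted p = 0.0153), Plin2 by 2.29 (SE 0.26, adjusted p = 0.0203) and Abca1 by 2.24 (SE 0.24, adjusted p = 0.0176). Soat1 rose by 1.70 (SE 0.20, adjusted p = 0.0238) and Lpl by 3.00 (SE 0.48, adjusted p = 0.044). With the slide as a random block, 5 probes were called, where 1.52% of all were: Apoc1 (3.99, adjusted p = 0.017), both probes of Lpl (brighter probe 2.70, adjusted p = 0.0296), Abca1 (1.88, adjusted p = 0.047) and Soat1 (1.43, adjusted p = 0.0493). Plin2 then stood at 1.85 with adjusted p = 0.0761. Neither block brought a member past the test at 2 weeks. For regular diet, Apoc1 was called with the random block and not with the fixed one (3.88, adjusted p = 0.068).

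Differences could also be read within slides. At 4 weeks they come from the pairs named above, so they are not independent of the fits with a slide block. On slides 2 and 3, where 1 array each of 4 weeks and untreated stood side by side, Apoc1 was 4.89 and 4.63 higher at 4 weeks. Lpl was 3.86 and 2.43 higher, Plin2 2.43 and 2.30, Abca1 2.37 and 2.13, Apoe 2.08 and 1.39, and Soat1 1.75 and 1.91. In 8 of the 10 genes, both 4-week arrays stood above the untreated array of their slide, as in 22.4% of all tested probes. The 2 arrays of 2 weeks on slide 1 stood above it in 7 of 10 genes and in 40.9% of all probes, with Apoe at 0.34 and -0.34 and Apod at -0.33 and -2.94. Of the regular diet group, 5 arrays shared a slide with an untreated array, and all 5 were higher in 6 of 10 genes and in 9.53% of all probes.

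**Figure D4:**
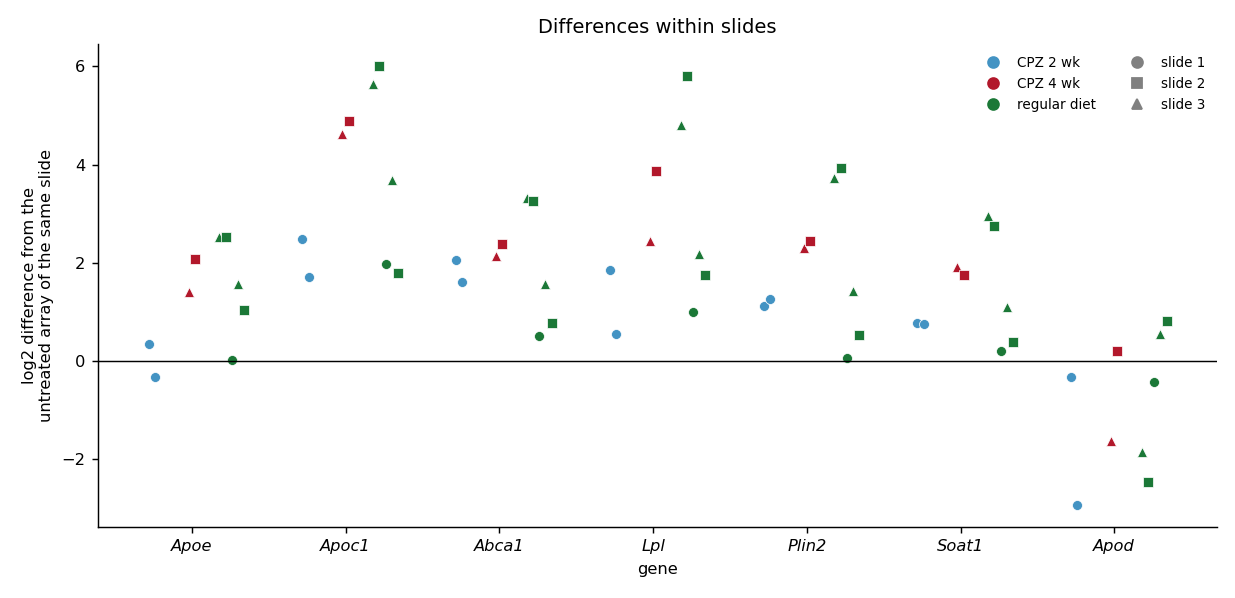
Log2 difference of each array from the untreated array of the same slide for 7 of the genes, at 2 weeks of CPZ (blue), 4 weeks (red) and on regular diet (green), with the symbol giving the slide. All Apoc1, Abca1, Lpl, Plin2 and Soat1 points lie above 0, while Apod points run from -2.94 to 0.80.

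Other lipid transport and storage genes were read from lists of 79 genes, which covered lipoproteins, receptors and uptake, efflux and sterol turnover, nuclear receptors, storage and lipolysis, and the control of lipoprotein lipase. On the array were 76, of which 54 were tested for CPZ and 55 for regular diet. Their median log2 difference was -0.09 at 2 weeks of CPZ, -0.11 at 4 weeks and -0.13 on regular diet. Counts of called genes among these were 0 at both CPZ times, with 0.193% and 0.164% of all probes called, and 1 higher on regular diet, with 0.799% of all. At an unadjusted p under 0.05, limma gave 2 higher and 4 lower at 2 weeks, where 4.25% of all probes were higher and 5.09% lower. At 4 weeks it gave 2 higher and 7 lower, with 5.05% of all in each direction, and on regular diet 4 higher and 2 lower, with 6.05% and 4.61% of all. Among the 7 lower genes at 4 weeks were 3 of the 14 tested for efflux and sterol turnover and 3 of the 17 for storage and lipolysis, and none of the 9 nuclear receptor genes.

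On regular diet the called gene was Apoc4, which belongs to the same chromosome 7 cluster as Apoe and Apoc1. It was well above background on 0 of 3 untreated arrays, on 2 of 3 at 2 weeks, 3 of 4 at 4 weeks and all 6 of regular diet, where its level ran from -3.52 through -1.62 to 1.12. It therefore entered the test only through the regular diet group, where it is high, and its call is no evidence beyond that selection. Against the lowest signals well above background on the untreated arrays, the measured signal was at least 9.7-fold higher on regular diet. The fitted difference was 4.72 on the log2 scale (adjusted p = 0.0395). With normexp background correction it was 1.07 (adjusted p = 0.236), which did not pass and lies below that bound. The call was lost in 15 of 25 alternatives, with adjusted p from 0.0259 to 0.715. Without untreated array 1, 2 or 3, 2-week array 1 or 3, 4-week array 1 or 4, or regular diet array 1, 2, 3 or 5 it was 0.0515 to 0.193.

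By the lowest p at either CPZ time, 5 more genes of the lists are named, and none of them was called. Abca2, a transporter of the myelinating oligodendrocyte, had levels of 2.70 to 3.15 untreated, 0.88 to 1.28 at 2 weeks and 0.06 to 1.47 at 4 weeks. Its differences were -1.88 and -2.03, with adjusted p of 0.0729 and 0.0581, and its other probe gave -1.97 and -2.12. The transporter gene Abca8a differed by -1.12 at the earlier time (adjusted p = 0.552) and by -2.82 at the later one (adjusted p = 0.0628), where 2 of 4 arrays were well above background. Mylip, a ubiquitin ligase gene that liver X receptors induce, differed by 0.78 (SE 0.21, adjusted p = 0.173) and 0.65 (SE 0.20, adjusted p = 0.241), and its other probe by 1.01 and 1.29. Npc1, which moves cholesterol out of lysosomes, had levels of -0.81 to -0.20 untreated, -1.94 to -1.23 at 2 weeks and -1.68 to -0.71 at 4 weeks. It differed by -1.12 (SE 0.30, adjusted p = 0.175) and -0.87 (SE 0.28, adjusted p = 0.287). Lipe, the gene of hormone-sensitive lipase, differed by -0.49 (SE 0.30, adjusted p = 0.777) and -1.01 (SE 0.28, adjusted p = 0.187), and its other probe by -0.76 and -0.52.

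Cell type markers were read on the same arrays, and limma called 0 genes of any marker list against untreated. In bulk tissue, more cells of a type cannot be told apart from more RNA per cell. The mean level of 11 tested of 12 microglia and macrophage markers, which do not include any of the 10 genes, was 1.03 to 2.02 untreated, 1.17 to 2.30 after 2 weeks of CPZ, 1.97 to 3.04 after 4 weeks and 2.11 to 5.23 on regular diet. Regular diet arrays 1 and 2, at 4.95 and 5.23, were the highest there too, and 2-week array 2 was the lowest treated array at 1.17. All 11 markers were above untreated at 4 weeks, with a median difference of 1.48, and on regular diet, with a median of 1.97, and 7 and 8 of them had an unadjusted p under 0.05. Of 9 oligodendrocyte markers, 8 were tested. Their mean level was 4.83 to 5.95 untreated, 0.58 to 3.69 at 2 weeks and 1.12 to 4.06 at 4 weeks. On regular diet it was 2.12 to 6.03. In these treated groups 8, 7 and 0 of the markers were lower at an unadjusted p under 0.05. The regular diet group was split. Arrays 1, 2 and 3, at 2.12, 2.18 and 2.84, lay below every untreated array, and arrays 4, 5 and 6 lay between 5.41 and 6.03. The count of 0 pools these sets and does not show a return to untreated levels. The lowest arrays of each treated group in this list, 2-week 2, 4-week 1 and regular diet 1, were also low for Apod, at 2.27, 2.40 and 2.18. Astrocyte markers, 8 of 8 tested, had mean levels of 2.78 to 3.52 untreated, 3.09 to 3.80 at 2 weeks, 3.08 to 4.05 at 4 weeks and 3.43 to 3.63 on regular diet, and 3, 3 and 4 were higher at that threshold. Choroid plexus markers (5 of 6 tested) varied widely within groups, from -1.67 to 0.51 untreated and from -2.93 to 2.47 at 4 weeks. Endothelial markers (7 of 7) were between -1.11 and 0.16 on every array, and neuronal markers (7 of 7) between 2.11 and 3.86. Meningeal markers (6 of 6) ran from -1.55 to 1.49 and red blood cell markers (2 of 4) from 0.29 to 2.69. The part of these markers in the levels of the 10 genes was not tested.

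**Figure D5:**
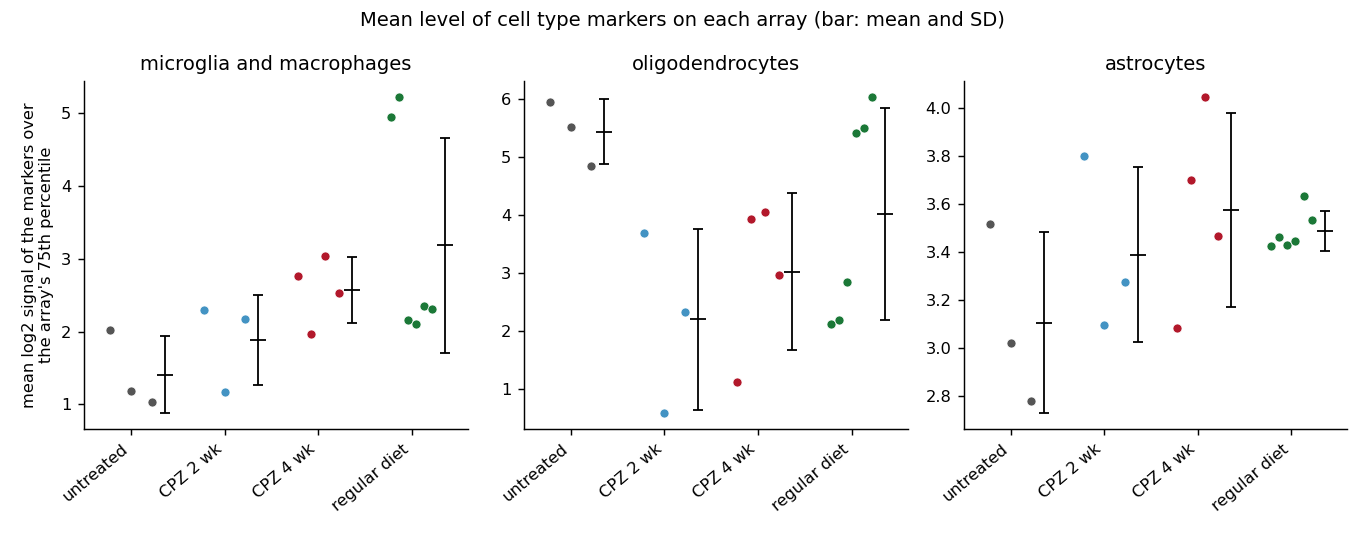
Mean log2 level of the tested markers of microglia and macrophages (11 genes), oligodendrocytes (8) and astrocytes (8) on each array, with group mean and SD as the black bar. Regular diet arrays 1 and 2 are highest for microglia and macrophages and lowest within their group for oligodendrocytes.

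For the 3 members with the widest span of group means, the most similar profiles among 13925 other named genes were found as the smallest root mean square difference over the 16 arrays, with each gene set relative to its untreated mean. Nearest to Apoc1 were the chemokine gene Ccl6 (0.43), Bcl2a1b (0.48), a relative of BCL2, and the acid-sensing receptor gene Gpr65 (0.50). Nearest to Lpl were Tyrobp (0.42) and Trem2 (0.43), which encode the signalling adaptor and the lipid-binding receptor of the same microglial complex, and the inflammasome adaptor gene Pycard (0.44). Nearest to Abca1 were the tetraspanin gene Tspan4 (0.28), the Toll-like receptor gene Tlr4 (0.32) and Lrrc25 (0.32). Since the measure weighs the size of each difference, genes with the same shape and a smaller span rank lower. All these values come from the same arrays and share their tissue makeup.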

How the data were processed

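RNA from mouse corpus callosum was hybridised to 16 Agilent arrays with 1 dye. Per the labels, the authors deposited the intensity of every spot from Agilent Feature Extraction 11.0.1.1 (submitters' processing notes), already background-subtracted. A second deposited table holds the authors' log2 values, scaled to the 75th percentile and set to a median of 0 (within 0.0001) over the untreated columns for 100% of probes, as found from the values. Gene names came from matching probe accessions to RefSeq genes of GRCm38.p6 (27479 of 41174 probes).

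Outlier spots were dropped, spots of a probe averaged, and log2 of the 75th percentile subtracted. Each processed column matched 1 scanner file across probes (r = 1.0, next best at most 0.949), and arrays took the sample of that column. Over the member probes, the processed values differed from the scanner values by at most 0.0248. Tests covered probes that all arrays of some group showed well above background, with limma 3.58.1 in R 4.3.3, on 3 groups for CPZ and 4 groups for regular diet. The code was tested on simulated data. The text names every member, pathway genes that were called, and the 3 of lowest p at each CPZ time. A gene is given by its brightest probe. A listed gene that is not reported here is left out of the list counts. The members and lists were chosen with earlier results of these data known. Alternatives were normexp (offset 50, on the median signal, in place of the mean signal that had been planned), quantile normalization, 2 other filters, slide and replicate blocks (statmod 1.5.0), the methods' test, the processed table, the recorded assignment, all 16 arrays, and leaving out each array. Differences within slides were added after seeing the data.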

Additional observations from a re-analysis of the deposited data

Results flagged for a closer look

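One member stood out by a single array. At 4 weeks of CPZ, the Apoe level of array 3 was 9.33, while the other 3 arrays lay between 8.45 and 8.54, a gap large against the group's whole range. It was 1 of 26 combinations of a member probe with the 4-week or the regular diet group that were examined, and chance gives such a gap in about 5% of groups. Array 3 also had the highest marker mean of its group for microglia and macrophages (3.04), astrocytes (4.05), oligodendrocytes (4.06) and choroid plexus (2.47). It was not the highest for endothelial, neuronal, meningeal or red blood cell markers. Whether any of these is linked to the Apoe level was not tested.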

How the results depend on the processing

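The main counts of probes called were 53 at 2 weeks of CPZ against untreated, 45 at 4 weeks against untreated, 3 between 4 and 2 weeks, 222 on regular diet against untreated and 1 against 4 weeks, with 0, 0, 0, 1 and 0 member probes among them. In the same order, normexp background correction gave 97, 50, 0, 41 and 0, quantile normalization 67, 20, 3, 163 and 323, no filter 46, 12, 5, 182 and 8, and the filter on every array 87, 64, 0, 115 and 0. A fixed slide block gave 109, 477, 0, 265 and 0, a random one 311, 417, 4, 327 and 8, and the methods' test 19, 11, 11, 13 and 5. With all 16 arrays in 1 fit, 27, 3 and 58 were called in the comparisons of CPZ. The processed table gave 53, 48, 3, 223 and 1, with the same count of member calls. Under normexp and under the filter on every array, 1 member probe was called at 4 weeks, and with either slide block 5 were. The Apoc1 call on regular diet was lost under normexp (adjusted p = 0.0865), quantile normalization (0.0507), no filter (0.0588), the fixed slide block (0.068), the replicate block (0.066), the methods' test (0.146) and the recorded assignment (0.757), with 0 member probes called under each. The cause was not tested.

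Replicate numbers did not pair the arrays: over 19 same-numbered pairs, deviations from the group means correlated at -0.81 to 0.34, with 5 over 0.1. Untreated array 1 correlated at 0.74 and 0.78 with 4-week arrays 2 and 3, and at -0.81 and -0.84 with 4-week arrays 1 and 4. Untreated array 1 and 4-week arrays 2 and 3 had the lowest shares of probes well above background, at 57.3, 60.3 and 59.2%. Whether this affects the comparison at 4 weeks was not tested. With the replicate block, the counts called were 0, 0, 0, 24 and 0 by limma, and 1891, 1728, 1301, 3579 and 3349 probes had an unadjusted p under 0.05.

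Leaving out 1 array at a time, the counts called ranged from 8 to 75 at 2 weeks, 0 to 186 at 4 weeks, 0 to 52 between them, 5 to 240 on regular diet against untreated and 0 to 1550 against 4 weeks, the last without 4-week array 1. Member calls stayed at 0 except for 0 to 2 at 4 weeks, where Apoc1 (adjusted p = 0.0257) and the second Lpl probe were called without 4-week array 2, and 0 to 1 on regular diet. Abcg1 on regular diet changed sign without untreated array 3 (-0.12), regular diet array 1 (-0.08) or array 2 (-0.10), within a range of -0.12 to 0.15. Other differences that were not called also moved by over 1.5 times when 1 array was left out, and their widest moves of this kind follow. At 2 weeks, Lpl was 0.94 without 2-week array 1, Nr1h3 0.30 without untreated array 2, Angptl4 0.38 without 2-week array 3 and Abcg1 -0.18 without 2-week array 2. At 4 weeks, Nr1h3 was 0.08 without untreated array 2, and Abcg1 was -0.56 without 4-week array 3 and -0.23 without untreated array 1. On regular diet, Nr1h3 was 0.09 without untreated array 2 and Angptl4 0.09 without untreated array 3. Processing moved some of them as far. Under normexp, Nr1h3 was 0.213 at 2 weeks, 0.125 at 4 weeks and 0.014 on regular diet. Angptl4 was then 0.433 at 2 weeks and 0.129 on regular diet. With the fixed slide block, Apoe was 0.24 at 2 weeks. At 4 weeks Abcg1 was -0.09, Nr1h3 0.63 and Apod -0.49 in that fit.

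With arrays taken as the scanner files are recorded, limma called 0 probes in each comparison, and 326, 811, 638, 2895 and 1963 had an unadjusted p under 0.05. Log2 differences then turned sign at 2 weeks for Apod (0.70), Abca1 (-0.15), Abcg1 (0.007), Nr1h3 (-0.09), Plin2 (-0.19), Soat1 (-0.11) and Angptl4 (-0.39). They did so at 4 weeks for Apoe (-0.061), Abca1 (-0.44), Abcg1 (0.055), Nr1h3 (-0.57), Plin2 (-0.25), Soat1 (-0.30) and Angptl4 (-0.55), and on regular diet for Abcg1 (-0.32) and Nr1h3 (-0.38). No other alternative turned the sign of a member's difference from untreated, apart from the 3 values of Abcg1 above. With 3 or 4 arrays in most groups, the median residual SD was 0.40 and 0.39 on the log2 scale in the 2 fits.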
